A study of Homo sapiens with 4 samples.

Results

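Histone lysine modifying enzymes are the proteins that add or remove methyl and acetyl groups on histone lysines. The set here comprises every protein-coding gene whose symbol begins with KDM, KMT, KAT, HDAC, SIRT, NSD or SETD followed by a digit, with symbols taken from the Ensembl identifiers of the count table. That rule gave 66 genes of 60617 in the table, namely 20 methyltransferases, 20 demethylases, 8 acetyltransferases and 18 deacetylases, the last made of 11 HDACs and 7 sirtuins. Enzymes known by other symbols are outside the rule and are described as a separate list. The cells were A673, an established line from a human Ewing sarcoma that carries the EWSR1-FLI1 fusion and has no functional p53. One group of 2 libraries came from cells given DMSO, the solvent, for 24 h, and the other group of 2 from cells given 1 µM CBL0137 for 24 h. The compound belongs to the curaxins, which bind DNA and trap the histone chaperone FACT on chromatin. The labels name no further genetic change in either group. Only 1 line was used, and nothing says that the replicates were grown apart, so the p-values rest on a spread between libraries that could be purely technical.

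Methyltransferases transfer a methyl group from S-adenosylmethionine to lysine, and the site decides the readout: methylation of H3K4 marks promoters and enhancers, that of H3K36 marks transcribed gene bodies, and that of H4K20 is tied to the cell cycle and to compacted chromatin. Demethylases reverse this, either by a flavin-dependent reaction in the KDM1 proteins or by an oxygen- and 2-oxoglutarate-dependent reaction in the Jumonji proteins. Acetyltransferases use acetyl-CoA to neutralise lysine charge and open chromatin, HDACs remove the acetyl group with zinc, and sirtuins remove it with NAD. Transcript levels do not measure enzyme activity or the marks themselves.

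Reads assigned to genes numbered 20483714 to 23373554 per library, and reads that fell on more than one gene, which the deposited table keeps apart, made up 9.19 to 9.50% of all reads. Summed CPM (counts scaled to a common library size with TMM factors) of 8 Ewing sarcoma markers was 5353 to 5511 in the 4 libraries, with 0 of the 8 at 0 counts. Markers of epithelial cells summed to 1.24 to 1.84 CPM over 6 genes, with 1 or 2 of them at 0 in each library. Blood cell markers (6 genes) summed to 4.89 and 5.34 CPM in DMSO and 7.51 and 7.81 CPM in CBL0137. Of the 6 genes, 1 to 3 were at 0 counts in each library. Among them ITGAM rose (mean 3.70 against 6.12 CPM, edgeR adjusted p = 0.0019), though not with DESeq2 (adjusted p = 0.051). CD68, at 0 or 1 counts in each library, stood at 5.99 to 9.74 on the deposited FPKM scale, which is described below. The count-based sums and zeros therefore cannot show that RNA of these markers was absent. The cause of this gap and the part of these markers in the results were not tested. Levels of 9 mitochondrially encoded genes, a sign of RNA quality, summed to between 41970 and 42390 CPM in all libraries.

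Transcripts of these enzymes changed little in size. In 63 of the 66 genes counts sufficed for a test, and log2 fold changes of CBL0137 against DMSO ran from -0.40 for HDAC8 to 0.60 for KAT2B. In bulk RNA of this kind, fewer cells that express a gene and less of its RNA per cell cannot be told apart. A gene is said below to have risen or fallen where edgeR's quasi-likelihood test gave a Benjamini-Hochberg adjusted p under 0.05 over all 17309 genes tested, and to be called where its fold change was also above 1.5, the limit that the series' design text also gives. By the first rule 7 members rose, 16 fell and 40 did not pass, a total of 36.5% of those tested, and the share over all genes tested was also 36.5%. Rises made up 11.1% of the members against 17.5% of all genes, and falls 25.4% of the members against 19.0% of all genes. By the stricter rule KAT2B alone was called, 1 of 63 members or 1.59%, against 9.61% of all genes tested (6.88% higher and 2.73% lower). The median log2 fold change was -0.03 over the members and 0.003 over all genes. In 58 of the 63 members (92.1%) the 95% interval of the log2 fold change lay inside the 1.5-fold limits, compared with 57.1% of all genes; the members were more abundant, with a median of 65.6 CPM against 16.7 CPM.

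The split between rises and falls depended on how libraries were scaled. With library size alone 14 members rose and 9 fell, so that 60.9% of those past the adjusted p were rises in place of 30.4%, and with upper-quartile factors 12 rose and 12 fell; the median of all genes then moved to 0.06 and 0.05. Over all genes, rises and falls were 23.7% and 14.2% with library size alone and 22.3% and 15.3% with upper-quartile factors. DESeq2 called 0 members against 2.82% of all genes and gave 3 rises and 10 falls among the members (4.67% and 6.59% of all genes). Its shares are over 32592 genes, low-count genes included, and are not comparable with the edgeR shares over 17309. With limma-voom KAT2B alone was called (9.54% of 17309 genes). On the deposited FPKM values limma-trend called 1 member, KMT5A, against 4.08% of the 14139 genes tested, with 1 rise and 3 falls (6.88% and 5.36% of these genes). Of the 23 members past the adjusted p, 10 passed in the same direction under all 12 other count-based settings that test for any change. They were NSD2, SETD5, KMT5A, KMT5C, KMT2E, KAT8, HDAC6 and SIRT2, which fell, and KDM5B and KAT7, which rose. The glmTreat test, against a change of 1.2-fold, is not among these 12. Of the 10, only NSD2 and KAT8 passed it (glmTreat adjusted p = 0.0011 and 0.048).

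**Figure D1:**
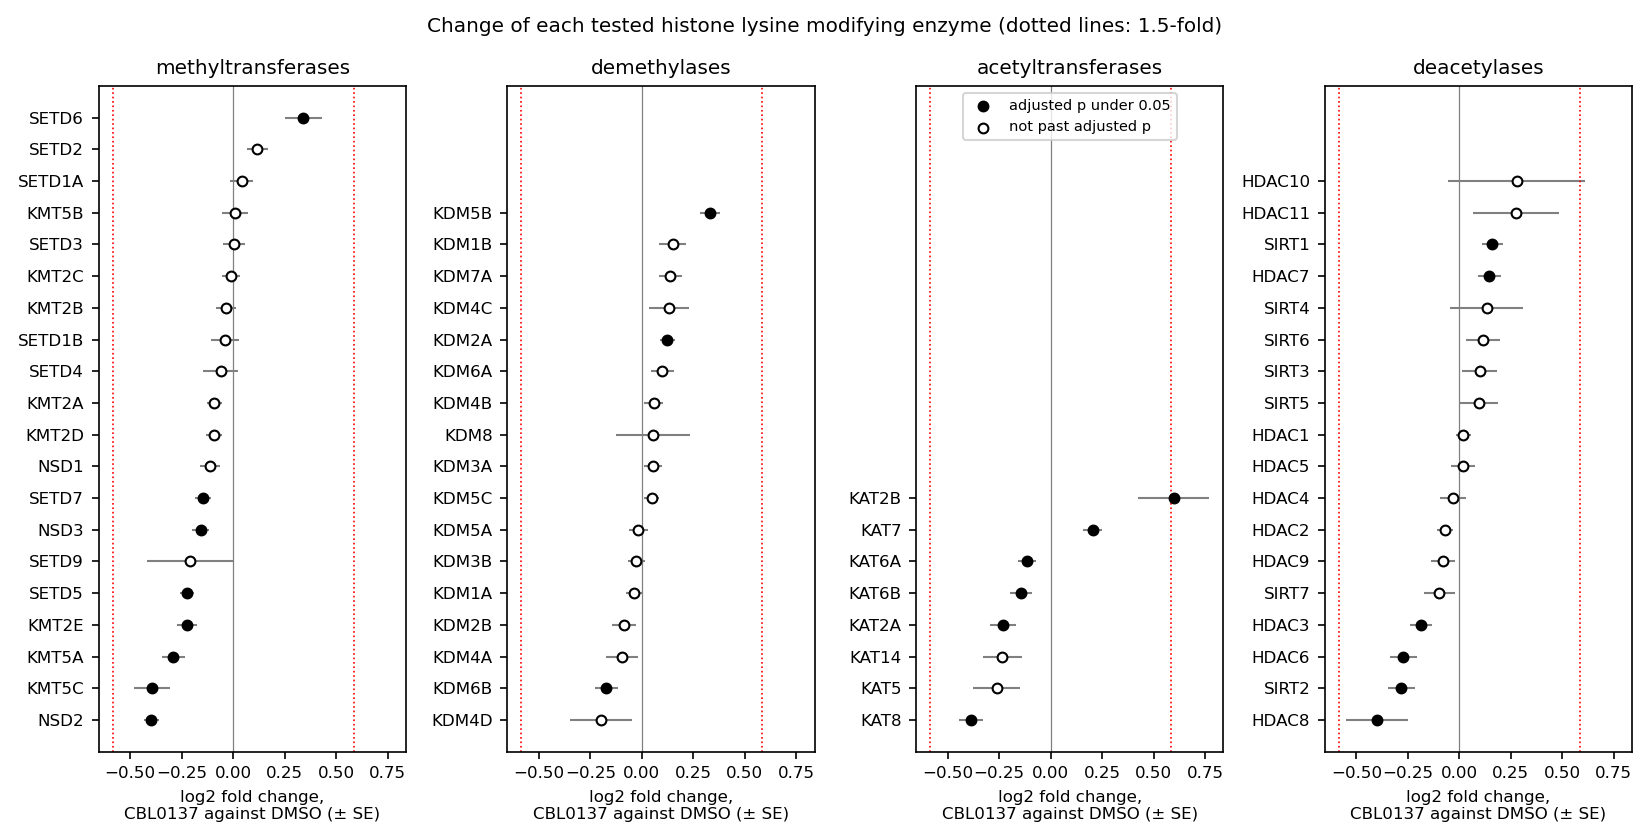
Log2 fold change (horizontal axis, CBL0137 against DMSO, bars ± SE) of each of the 63 tested members, in 4 panels by enzyme class, with filled points for an edgeR adjusted p under 0.05. KAT2B at 0.60 is the one point beyond a dotted line, which marks a change of 1.5-fold, and 15 of 20 methyltransferases lie left of 0.

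**Figure D2:**
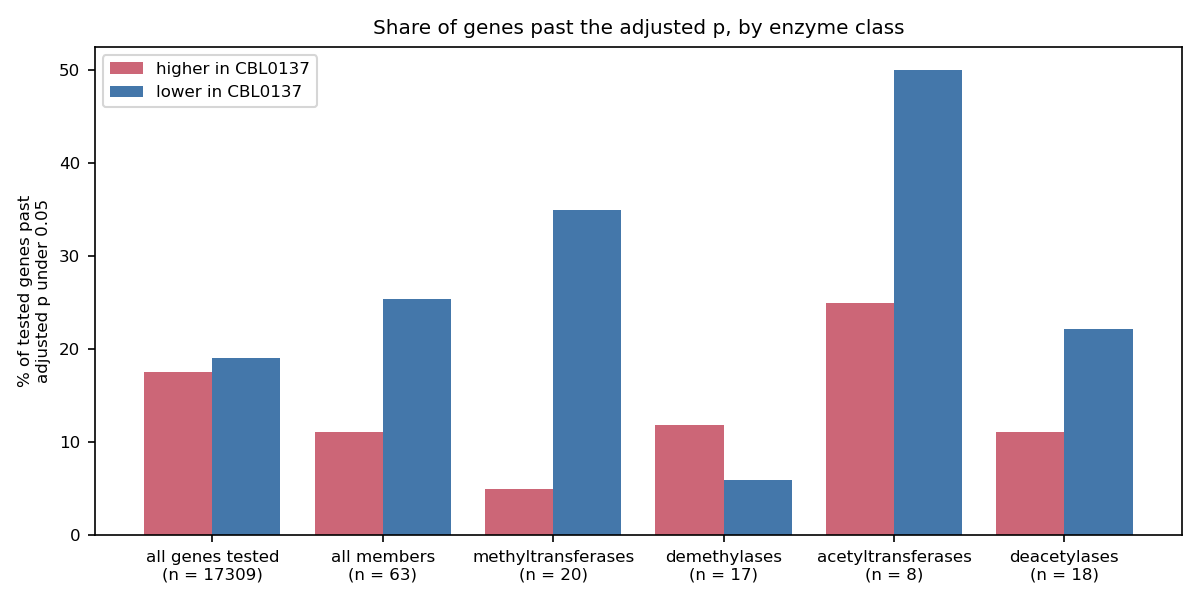
Bars give the percentage of tested genes with an edgeR adjusted p under 0.05, higher (red) or lower (blue) in CBL0137, for all genes, for all members and for each class. Falls made up 50% of the 8 acetyltransferases, 35.0% of methyltransferases, 22.2% of deacetylases and 5.88% of demethylases, beside 19.0% of all genes.

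Levels between genes were compared per length. On the deposited FPKM scale (fragments per kilobase of gene length, scaled to depth) HDAC1 stood highest, at 92.1 and 88.5 in DMSO and 94.3 and 97.0 in CBL0137. KDM1A, the demethylase LSD1, followed with 58.0 and 62.3 against 63.9 and 60.1 FPKM, and KDM5C, an X-linked demethylase of H3K4, came next with 43.9 and 44.4 against 45.6 and 48.9 FPKM. These levels did not overlap with one another. NSD2 (mean 39.4 ± 2.03 SD in DMSO and 30.6 ± 0.0638 in CBL0137, n = 2 each) and SETD5 (31.1 ± 6.95 and 33.1 ± 1.66 FPKM) were the highest methyltransferases, and their ranges overlapped. KAT8, at 25.3 and 25.4 against 20.2 and 20.2 FPKM, led the acetyltransferases, overlapping with KAT5 (15.7 to 20.7 FPKM), and SIRT2 (13.7 and 13.7 against 12.5 and 11.8 FPKM) the sirtuins, though SIRT6 (10.8 to 13.9 FPKM) and SIRT1 (10.8 to 12.9 FPKM) overlapped with it. Counts per kilobase of exon (mean CPM of the 4 libraries over exon length) gave another order below HDAC1 (75.8). On that scale KDM1A (17.2) was below KDM5C (29.4), KDM2A (25.9), NSD2 (19.2), KDM3B (18.6) and KMT5A (17.5). KAT8 (9.18) was below KAT2A (11.7), and SIRT2 (6.44) was below SIRT1 (16.4) and SIRT6 (10.5). The order of these genes thus depended on the measure of length and depth. At the low end of the FPKM scale KAT2B had a mean of 0.580 FPKM in DMSO and 0.950 in CBL0137. KDM4E, KDM4F and KDM5D had at most 2 counts in any library and were not tested.

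**Figure D3:**
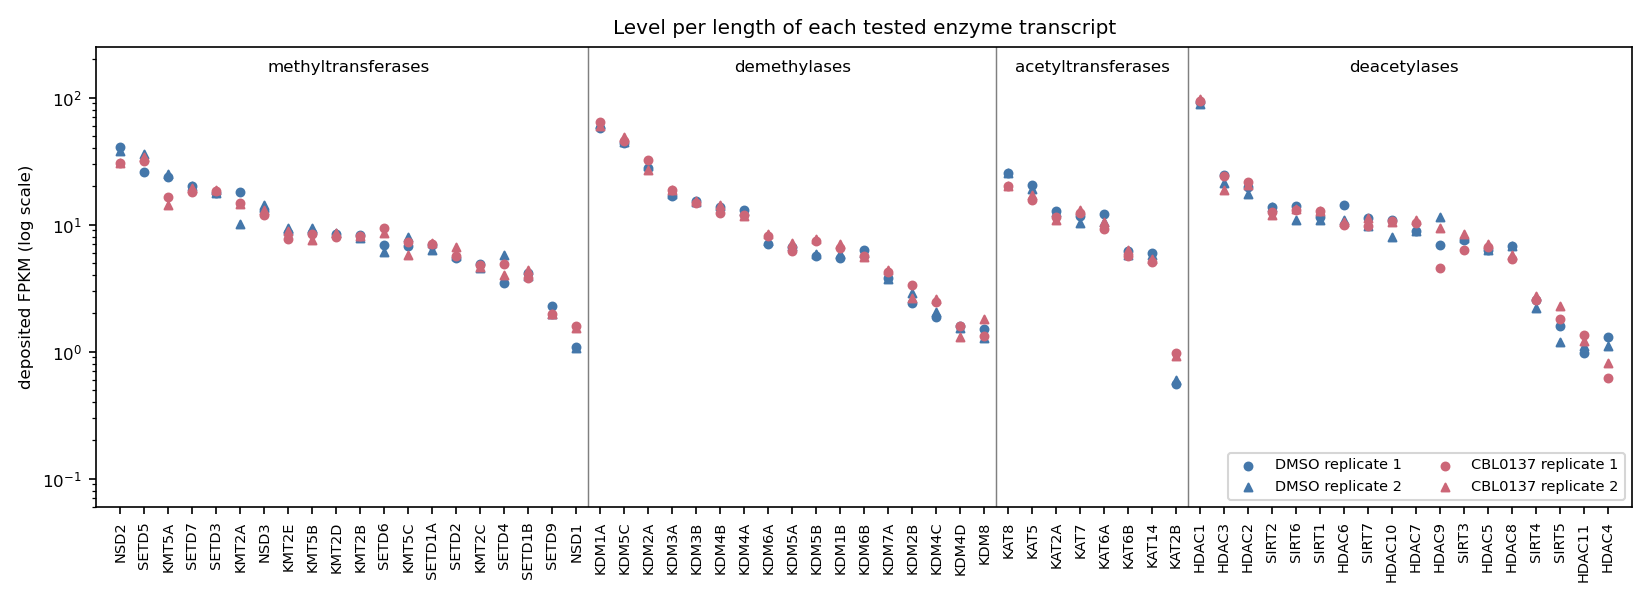
Deposited FPKM (log axis) of the 63 tested members in each library, ordered from high to low within each class, with circles for replicate 1 and triangles for replicate 2. HDAC1 sits highest at 88.5 to 97.0 and KAT2B is the lowest acetyltransferase.

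Methyltransferases mostly leaned lower. Of 20 members 7 fell, 1 rose and 12 did not pass, with a median log2 fold change of -0.09 that stayed below 0 under each scaling tried. Falls made up 35% and rises 5% of this class, beside 19.0% and 17.5% of all genes tested. None of the 20 was called at the fold limit by edgeR, DESeq2 or limma-voom. An unadjusted edgeR p under 0.05 was seen for 12 of the 20, beside 7757 of 17309 over all genes. That base applies to each such count below.

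Among the methyltransferases of H3K36, NSD2, which dimethylates this site and is also known as MMSET, had the smallest adjusted p of all members. Its level was 445 and 442 CPM in DMSO and 332 and 341 CPM in CBL0137. Both treated libraries were below both controls, and the log2 fold change was -0.40 ± 0.03 (SE; edgeR adjusted p = 1.1e-09). NSD2 (ENSG00000109685) lies on chromosome 4, from 1873120 to 1983934 in GRCh37. Its paralog NSD3 fell less (162 and 160 against 141 and 148 CPM; -0.16 ± 0.04), though not with library size alone (adjusted p = 0.068), and NSD1 measured 102 and 102 against 96.8 and 92.3 CPM (-0.11, adjusted p = 0.066). SETD2, the enzyme that trimethylates the same lysine, measured 72.4 and 72.9 against 77.1 and 80.4 CPM (0.12, adjusted p = 0.079).

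Of the H4K20 enzymes, KMT5A and KMT5C fell and KMT5B did not pass. KMT5A, which places the first methyl group and whose protein is destroyed in S phase, went from 79.1 and 82.9 CPM to 68.7 and 63.9 CPM (-0.29 ± 0.05, edgeR adjusted p = 0.00013). KMT5C, which adds further methyl groups in heterochromatin, went from 23.3 and 25.1 CPM to 18.4 and 18.4 CPM (-0.39 ± 0.09, edgeR adjusted p = 0.00084). In both genes the treated libraries were below the controls. KMT5B, with the same reaction as KMT5C, gave 51.6 and 54.1 against 55.9 and 50.5 CPM, and the groups overlapped (0.01; 95% interval -0.12 to 0.14).

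The H3K4 enzymes showed no change past the test. Of the 6 genes KMT2A, KMT2B, KMT2C, KMT2D, SETD1A and SETD1B, the catalytic subunits of the COMPASS-like complexes, 0 passed the adjusted p by edgeR, DESeq2 or limma-voom and 2 had an unadjusted edgeR p under 0.05. Their log2 fold changes ran from -0.09 to 0.04, with every 95% interval inside the 1.5-fold limits. KMT2A, the MLL1 gene, measured 254 and 257 against 233 and 246 CPM (-0.09, adjusted p = 0.063). It passed with no count filter (adjusted p = 0.039) and without CBL0137 replicate 2 (-0.13, adjusted p = 0.0071).

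Among the remaining SET domain proteins, SETD5, a chromatin regulator whose loss causes intellectual disability, fell from 307 and 308 to 264 and 263 CPM (-0.22 ± 0.04, edgeR adjusted p = 1.8e-05), and KMT2E, a reader of methylated H3K4, fell from 105 and 108 to 88.0 and 94.8 CPM (-0.22 ± 0.05). SETD7, which monomethylates histone and other proteins, fell by 0.15 on the log2 scale and lost significance with library size alone (adjusted p = 0.082). SETD6, a methyltransferase of the NF-kB subunit RELA, rose from 17.3 and 17.1 to 22.6 and 21.0 CPM (0.34 ± 0.09, edgeR adjusted p = 0.0044), but not with DESeq2 (adjusted p = 0.077). Its exons share 27.1% of their length with other genes, mainly CNOT1 on the opposite strand.

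The windows upstream of NSD2 and KMT5C, which fell, and of SETD6, which rose, are shown because these had the largest changes in the class. Each run is the 250 bases before the gene's start in RefSeq (GRCh38.p14), read along the gene. Capitals mark exact matches, on either strand, to 8 short motifs: an ETS site CCGGAAGT, the sequence GGGCGG known as the GC box, the CCAAT box by its own letters, a cell cycle homology region TTTGAA, an E2F site TTCCCGC, an NRF1 site, a CRE TGACGTCA and an E-box CACGTG. Overlapping matches run together in capitals.
NSD2 (chr4:1871143-1871392, plus strand): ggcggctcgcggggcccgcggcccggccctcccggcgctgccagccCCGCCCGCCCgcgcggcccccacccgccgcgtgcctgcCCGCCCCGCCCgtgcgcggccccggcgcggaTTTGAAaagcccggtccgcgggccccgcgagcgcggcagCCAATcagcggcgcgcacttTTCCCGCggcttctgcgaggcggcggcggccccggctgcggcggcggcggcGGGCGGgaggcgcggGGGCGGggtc
KMT5C (chr19:55339626-55339875, plus strand): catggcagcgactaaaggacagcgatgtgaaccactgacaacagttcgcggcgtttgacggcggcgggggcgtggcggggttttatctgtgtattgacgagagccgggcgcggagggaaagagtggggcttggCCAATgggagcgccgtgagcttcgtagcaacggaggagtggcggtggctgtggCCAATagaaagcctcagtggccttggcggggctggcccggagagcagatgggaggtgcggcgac
SETD6 (chr16:58515267-58515516, plus strand): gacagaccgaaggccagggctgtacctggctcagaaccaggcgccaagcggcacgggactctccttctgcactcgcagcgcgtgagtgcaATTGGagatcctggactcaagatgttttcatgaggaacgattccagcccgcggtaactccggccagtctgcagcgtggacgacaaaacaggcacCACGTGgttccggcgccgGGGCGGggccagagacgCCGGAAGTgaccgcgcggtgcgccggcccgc
The NSD2 window holds 6 GC boxes, a CCAAT box, a TTTGAA match and an E2F match, the KMT5C window holds 2 CCAAT boxes, and the SETD6 window holds 1 match each to the CCAAT box, E-box, GC box and ETS site. Over all 35116 RefSeq windows of this length, 42.6% hold a GC box, 32.0% a CCAAT box, 13.3% TTTGAA, 5.52% the E2F letters, 1.03% the NRF1 site, 1.65% the CRE, 6.34% the E-box and 3.42% the ETS site. Of the 66 members 59 had a window in the table, in 93 entries because a gene can have several starts, and GC boxes stood in 64.5% of these and CCAAT boxes in 32.3%. A match is a description of the letters and not evidence of binding.

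Of the tested demethylases 17.6% passed the adjusted p, beside 36.5% of all genes, and KDM5B had the largest change among those that passed. Of 17 tested members 2 rose, 1 fell and 14 did not pass, and the class median was 0.05. Rises were 11.8% and falls 5.88% of the class, beside 17.5% and 19.0% of all genes tested. By edgeR, DESeq2 and limma-voom 0 were called at the fold limit, and 5 had an unadjusted edgeR p under 0.05. KDM5B, which removes methyl groups from H3K4 and is also called JARID1B, rose from 76.8 and 80.8 CPM to 97.2 and 101 CPM. Both treated libraries were above both controls (0.33 ± 0.05, edgeR adjusted p = 8.6e-06). KDM5B (ENSG00000117139) lies on chromosome 1, from 202693623 to 202777615 in GRCh37, and its upstream window, shown for that reason, holds 3 GC boxes and no other motif searched.
KDM5B (chr1:202808422-202808671 in GRCh38.p14, minus strand): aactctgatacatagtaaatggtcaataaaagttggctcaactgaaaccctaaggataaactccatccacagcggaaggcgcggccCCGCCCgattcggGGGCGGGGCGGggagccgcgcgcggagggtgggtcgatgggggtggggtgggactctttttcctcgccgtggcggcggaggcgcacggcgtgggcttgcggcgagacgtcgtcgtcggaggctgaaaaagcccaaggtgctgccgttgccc
The other KDM5 genes did not pass: KDM5A measured 104 and 105 against 101 and 106 CPM (-0.02), and KDM5C 356 and 358 against 356 and 381 CPM (0.05).

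KDM6A and KDM6B, which both demethylate H3K27, leaned in opposite directions, a contrast that was not itself tested. KDM6B, an inducible enzyme also called JMJD3, fell from 72.0 and 68.4 to 62.1 and 62.5 CPM (-0.17 ± 0.05, edgeR adjusted p = 0.014), whereas KDM6A (UTX) measured 64.8 and 69.5 against 72.3 and 71.7 CPM (0.10, adjusted p = 0.16). Both depended on the scaling. KDM6B no longer passed with library size alone (adjusted p = 0.12) or upper-quartile factors (0.074), nor with DESeq2 (0.096) or without DMSO replicate 1 (0.16), and KDM6A passed with those 2 scalings (0.018 and 0.031). KDM2A, which binds CpG islands and demethylates H3K36, rose from 251 and 264 to 284 and 277 CPM (0.12 ± 0.04, edgeR adjusted p = 0.011), a rise lost without DMSO replicate 1 (0.08, adjusted p = 0.26).

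KDM1A, a target of inhibitors studied in Ewing sarcoma, measured 312 and 326 CPM in DMSO and 321 and 301 CPM in CBL0137. The groups overlapped, and the log2 fold change of -0.04 had a 95% interval of -0.12 to 0.04; its sign turned with upper-quartile factors (0.01) and library size alone (0.02). KDM1B, its paralog, measured 43.0 and 46.0 against 50.9 and 47.8 CPM (0.15, adjusted p = 0.069), and KDM7A 54.5 and 53.3 against 58.7 and 60.0 CPM (0.14, adjusted p = 0.058). With upper-quartile factors both passed (adjusted p = 0.013 and 0.0094). The KDM3 and KDM4 genes, erasers of H3K9 methylation, stayed between -0.20 and 0.13, and 0 of the 6 tested passed by edgeR, DESeq2 or limma-voom, with 0 at an unadjusted edgeR p under 0.05. KDM4A counts come from a locus where 48.8% of the exon length is shared with other genes.

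With edgeR 75.0% of the acetyltransferases passed the adjusted p, beside 36.5% of all genes. With DESeq2 2 of 8 did, 12.5% higher and 12.5% lower, as did 7 of 20 methyltransferases. The DESeq2 shares over 32592 genes, low-count genes included, were 4.67% higher and 6.59% lower. Of the 8 genes 4 fell (KAT8, KAT2A, KAT6A and KAT6B), 2 rose (KAT2B and KAT7) and 2 did not pass, with a median log2 fold change of -0.19. With edgeR falls were thus 50% and rises 25% of the class, beside 19.0% and 17.5% of all genes tested.

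The paralogs KAT2A (GCN5) and KAT2B (PCAF), alternative catalytic subunits of the SAGA and ATAC coactivator complexes, moved in opposite directions. KAT2B went from 4.16 and 3.82 CPM in DMSO to 5.90 and 6.17 CPM in CBL0137, on 95 and 86 against 124 and 143 counts. Both treated libraries were above the controls, a 1.51-fold rise (log2 0.60 ± 0.17, 95% interval 0.24 to 0.95, edgeR adjusted p = 0.0078). KAT2A, the more abundant paralog at 12.7 against 0.580 FPKM in DMSO, went from 48.4 and 46.9 to 41.1 and 40.1 CPM (-0.23 ± 0.06, edgeR adjusted p = 0.0049), and its treated libraries were below the controls. Whether the 2 changes differ was not tested. The call on KAT2B was lost with DESeq2 (0.59, adjusted p = 0.12), with glmTreat, which tests against a change of 1.2-fold (adjusted p = 0.071), without DMSO replicate 2 (0.53, adjusted p = 0.057), and without CBL0137 replicate 2, where it was below the fold limit (0.56); the fall of KAT2A was lost with DESeq2 (-0.24, adjusted p = 0.059).

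KAT2B (ENSG00000114166) lies on chromosome 3, from 20081938 to 20195896, and KAT2A (ENSG00000108773) on chromosome 17, from 40265129 to 40273385, both in GRCh37. Their upstream windows are set side by side because the paralogs moved apart.
KAT2B (chr3:20040196-20040445 in GRCh38.p14, plus strand): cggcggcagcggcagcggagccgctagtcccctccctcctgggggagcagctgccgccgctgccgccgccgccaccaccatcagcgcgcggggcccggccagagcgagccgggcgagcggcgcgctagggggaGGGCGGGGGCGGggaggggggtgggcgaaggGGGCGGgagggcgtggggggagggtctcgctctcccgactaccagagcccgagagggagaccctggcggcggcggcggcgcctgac
KAT2A (chr17:42121368-42121617 in GRCh38.p14, minus strand): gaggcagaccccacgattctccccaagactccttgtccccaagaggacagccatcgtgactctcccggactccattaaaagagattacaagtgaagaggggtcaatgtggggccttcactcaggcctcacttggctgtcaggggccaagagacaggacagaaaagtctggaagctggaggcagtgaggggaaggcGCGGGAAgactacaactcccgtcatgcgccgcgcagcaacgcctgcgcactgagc
The KAT2B window holds 3 GC boxes and is 80.8% G or C. The KAT2A window, at 58.8%, has no GC box and 1 match to the E2F letters.

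In the MYST family, KAT8 (MOF), the main acetyltransferase of H4K16, fell from 60.0 and 59.2 CPM to 44.4 and 46.7 CPM, and no library of one group reached the other (-0.39 ± 0.06, edgeR adjusted p = 9.5e-06). KAT7 (HBO1), which acetylates H3K14 and acts at replication origins, rose from 93.4 and 96.4 to 110 and 109 CPM (0.20 ± 0.05, edgeR adjusted p = 0.0011). KAT6A and KAT6B, targets of translocations in leukaemia and of mutations in developmental syndromes, fell by 0.11 and 0.14 on the log2 scale, and neither passed with library size alone (adjusted p = 0.36 and 0.26), upper-quartile factors (0.24 and 0.18) or DESeq2 (0.12 and 0.19). KAT6A was also lost with each library left out in turn (adjusted p = 0.051 to 0.18) and KAT6B with each but CBL0137 replicate 2, and of 12 other count-based settings 3 and 4 kept these falls. KAT5 (TIP60), the catalytic subunit of NuA4, gave 16.7 and 14.4 against 14.2 and 11.8 CPM (-0.26, adjusted p = 0.074), and it passed without DMSO replicate 2 (-0.37, adjusted p = 0.023) or CBL0137 replicate 1 (-0.40, adjusted p = 0.011). Of its exon length 38.6% is shared with other genes, mainly RNASEH2C.

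**Figure D4:**
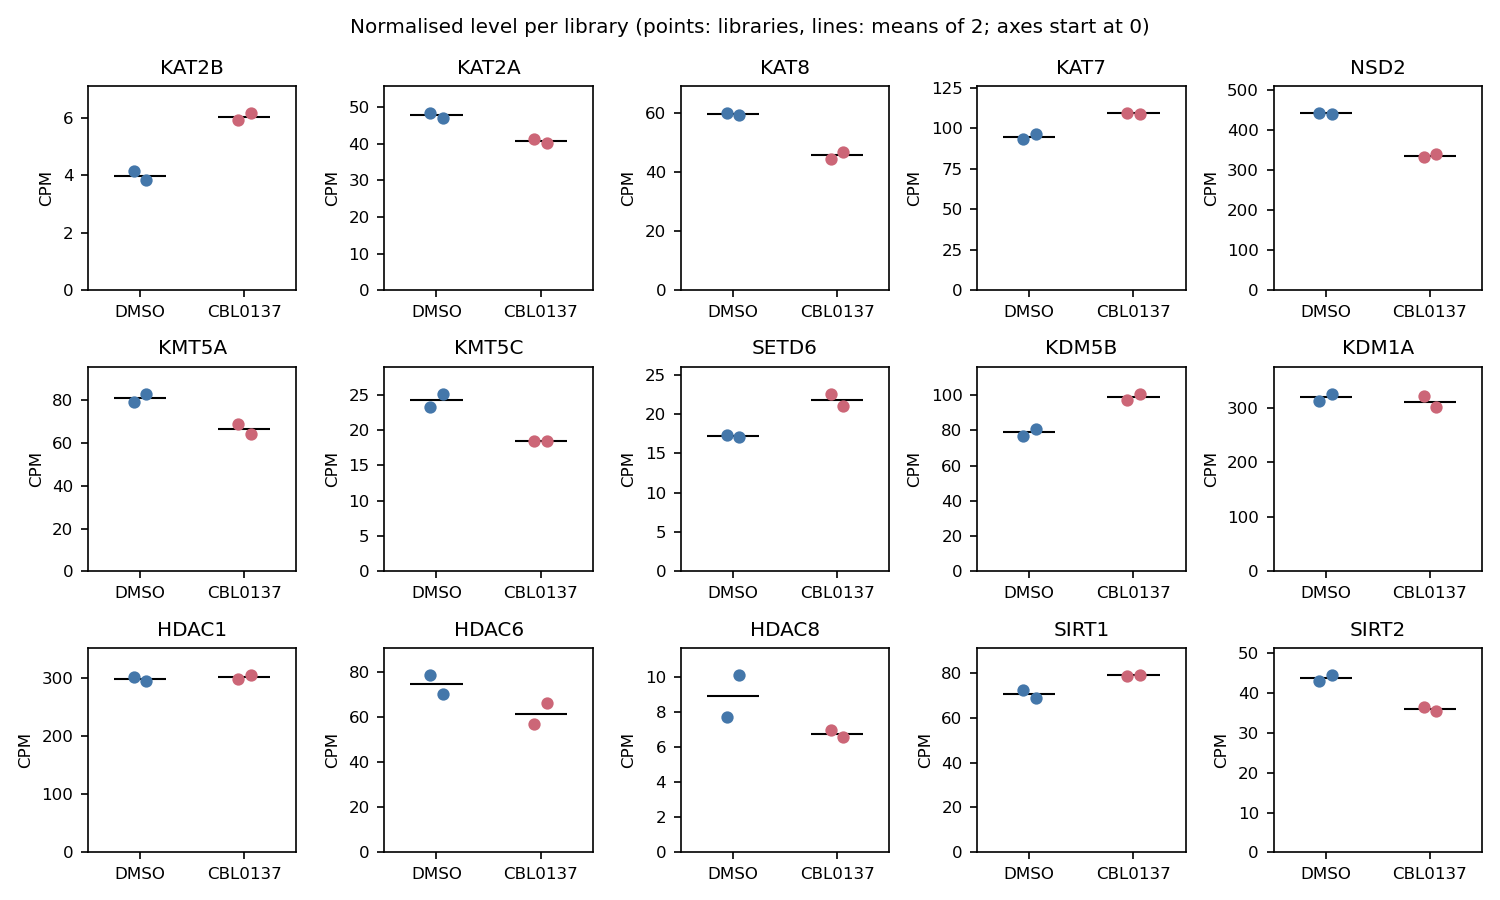
CPM after TMM scaling (vertical axes, each from 0) of 15 members in each library, with blue points for DMSO, red for CBL0137 and a line at each mean of 2. KAT2B, KAT7, SETD6, KDM5B and SIRT1 sit higher in both CBL0137 libraries, whereas points of KDM1A and HDAC1 overlap.

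Among the deacetylases, 4 fell (HDAC3, HDAC6, HDAC8 and SIRT2), 2 rose (HDAC7 and SIRT1) and 12 did not pass, and the class median of 0.02 turned to -0.01 without DMSO replicate 2 and to -0.02 without CBL0137 replicate 2. Falls made up 22.2% and rises 11.1% of this class, beside 19.0% and 17.5% of all genes tested. With edgeR, limma-voom and DESeq2 0 of 18 were called at the fold limit, while 6 had an unadjusted edgeR p under 0.05.

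HDAC1 and HDAC2, the paired catalytic subunits of the NuRD, Sin3 and CoREST complexes and main targets of clinical HDAC inhibitors, did not pass. HDAC1 measured 303 and 294 CPM in DMSO and 299 and 306 CPM in CBL0137, with overlapping groups and a 95% interval of -0.05 to 0.09 on the log2 scale. HDAC2 measured 253 and 250 against 246 and 234 CPM (-0.07, adjusted p = 0.17), and it passed without CBL0137 replicate 1 (-0.11, adjusted p = 0.034). HDAC3, the enzyme of the NCoR and SMRT corepressors, fell from 69.8 and 74.7 to 63.7 and 63.3 CPM (-0.19 ± 0.05, edgeR adjusted p = 0.0088), which was lost with library size alone (adjusted p = 0.073), DESeq2 (0.068) and without DMSO replicate 2 (0.14).

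HDAC8, which deacetylates the cohesin subunit SMC3, had the lowest estimate of any member on few reads. Counts were 176 and 228 in DMSO and 146 and 152 in CBL0137, or 7.70 and 10.1 against 6.95 and 6.56 CPM (-0.40 ± 0.15, edgeR adjusted p = 0.037). The value rested on DMSO replicate 2, without which it was -0.20 (adjusted p = 0.47), while without DMSO replicate 1 it was -0.59 (0.0039) and reached the fold limit. It also missed the threshold with upper-quartile factors (0.054), library size alone (0.064), DESeq2 (0.23), limma-voom (0.052) and without CBL0137 replicate 2 (0.11). On the deposited FPKM scale HDAC8 stood at 6.76 and 6.78 in DMSO and 5.34 and 5.74 in CBL0137, without overlap (limma-trend -0.25, adjusted p = 0.099). Its mean FPKM was 18.0 times its counts per kilobase of exon, and the cause of this gap was not tested. HDAC6, the cytoplasmic deacetylase of tubulin, fell from 78.9 and 70.3 to 57.0 and 66.3 CPM (-0.27 ± 0.07, edgeR adjusted p = 0.0018). Its value ranged from -0.39 to -0.17 as single libraries were left out or the scaling was changed.

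The class IIa enzymes HDAC4, HDAC5, HDAC7 and HDAC9, signal-responsive partners of MEF2, stayed between -0.08 and 0.15. HDAC7 rose slightly (51.9 and 55.1 against 59.1 and 59.2 CPM; 0.15 ± 0.06, edgeR adjusted p = 0.049) and held in 4 of 12 other count-based settings. HDAC9 measured 69.0 ± 0.0907 (SD, n = 2) against 65.2 ± 4.52 CPM (-0.08, adjusted p = 0.29). HDAC10 and HDAC11 had 25 to 98 counts a library, and their 95% intervals crossed the upper 1.5-fold limit (-0.41 to 0.97 and -0.15 to 0.71). For HDAC10, a polyamine deacetylase, 55.8% of the exon length is shared with other genes, mainly MAPK12, and its 1.09 to 1.71 CPM stood beside a deposited FPKM of 8.01 to 10.9.

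Of the 7 sirtuins SIRT1 rose, SIRT2 fell and 5 did not pass. SIRT1, a nuclear deacetylase of histones and p53, went from 72.3 and 68.7 to 78.5 and 79.1 CPM (0.16 ± 0.05, edgeR adjusted p = 0.017), which was lost with DESeq2 (adjusted p = 0.13), without DMSO replicate 2 (0.23) or CBL0137 replicate 2 (0.055). SIRT2, mainly cytoplasmic and active on H4K16 in mitosis, went from 43.0 and 44.7 to 36.6 and 35.6 CPM (-0.28 ± 0.07, edgeR adjusted p = 0.0013), with no overlap. The mitochondrial SIRT3, SIRT4 and SIRT5 measured 0.10, 0.13 and 0.09, the chromatin-bound SIRT6 0.12 and the nucleolar SIRT7 -0.10 on the log2 scale, with every 95% interval inside the 1.5-fold limits. SIRT3 passed without CBL0137 replicate 1 (0.23, adjusted p = 0.032).

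The deposited FPKM and the counts gave different changes for some members. Among 62 members that reached 1 FPKM in 2 or more libraries, 50 had the same sign by both measures and 12 had opposite signs, and of the 22 that passed the adjusted p by counts 21 had the same sign. KMT5A stood at 23.8 and 25.1 FPKM in DMSO and 16.6 and 14.2 in CBL0137, a limma-trend log2 difference of -0.64 on the log2(FPKM + 1) scale (adjusted p = 0.025) against -0.29 by counts. NSD1 went the other way, at 1.08 and 1.07 FPKM in DMSO and 1.58 and 1.54 in CBL0137 (0.30, adjusted p = 0.11), while its counts gave -0.11. SETD5, the member that passed by counts with the opposite FPKM sign, was at 26.2 FPKM in DMSO replicate 1 and at 31.9 or more in each other library. HDAC4 was at 1.302 and 1.108 FPKM in DMSO and 0.623 and 0.811 in CBL0137, with a count-based change of -0.03. The cause of these gaps was not tested.

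**Figure D5:**
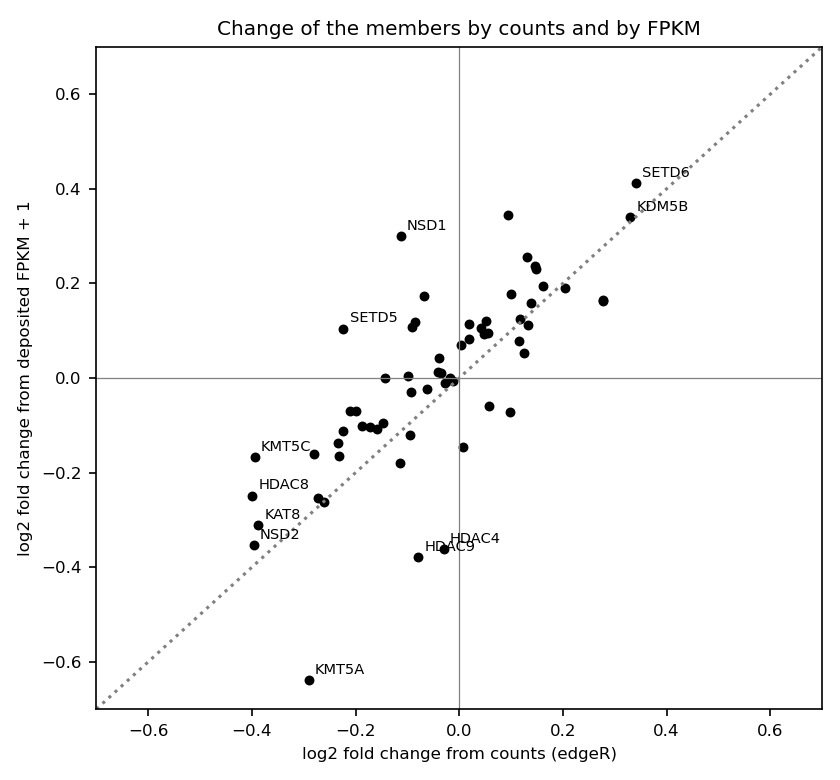
Each point is 1 of 62 members, with its log2 fold change by edgeR on counts (horizontal axis) and by limma-trend on the deposited FPKM + 1 (vertical axis), and a dotted line where both are equal. KMT5A lies below the line at -0.64 by FPKM, and NSD1 lies above it at 0.30.

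Enzymes with other symbols and partner subunits were counted in the same way. Over all genes tested 19.0% fell, 17.5% rose and 9.61% were called. Of 17 tested lysine methyltransferases outside the rule 5 fell (29.4%), 2 rose (11.8%) and 11.8% were called. Among them SUV39H1, which trimethylates H3K9 in heterochromatin, was called lower (26.2 and 27.3 against 16.7 and 18.3 CPM; -0.61 ± 0.09, edgeR adjusted p = 3.7e-06) and PRDM16 was called higher at under 2 CPM (1.59 ± 0.41), a call lost with DESeq2 (adjusted p = 0.067). Of 7 further demethylases 2 rose and 2 fell, 28.6% each, and 14.3% were called. The 1 called was the Jumonji protein HR (hairless), which went higher, from 36.2 and 33.1 to 64.9 and 67.3 CPM (0.93 ± 0.06, edgeR adjusted p = 1.1e-11). Of 13 further acetyltransferases, the p300 and CBP genes included, 2 rose and 2 fell (15.4% each), and 5 had an unadjusted edgeR p under 0.05. None of the 13 reached the fold limit with edgeR, limma-voom or DESeq2.

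Log2 fold changes of complex subunits ran from -0.58 to 0.32, beside -0.40 to 0.60 for the members. Of 13 COMPASS and MLL subunits 5 fell and 1 rose, of 27 acetyltransferase subunits 6 fell and 2 rose, and of 30 deacetylase subunits 8 fell and 3 rose, with medians of -0.11, -0.09 and -0.04. Falls were thus 38.5%, 22.2% and 26.7% of these lists, beside 19.0% of all genes. With DESeq2 3, 3 and 5 of their genes fell. In these 3 lists 0 genes were called with edgeR, limma-voom or DESeq2, with 7, 12 and 13 genes at an unadjusted edgeR p under 0.05. The lowest estimates were those of JADE1, a subunit of KAT7 complexes (-0.58 ± 0.07), and RBBP7, a histone-binding subunit of HDAC1 and HDAC2 complexes (-0.54 ± 0.04), both named after their values were seen. Among 11 enzymes that supply the cofactors, 5 fell and 2 rose (45.5% and 18.2%, beside 19.0% and 17.5% of all genes tested). Of this list 9.09% was called, beside 9.61% of all genes. The 1 gene called was ACSS2, which makes acetyl-CoA from acetate and was lower (54.8 and 54.2 against 36.3 and 32.0 CPM, -0.67 ± 0.07, edgeR adjusted p = 1.2e-08).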

How the data were processed

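RNA-seq of 2 DMSO and 2 CBL0137 libraries was analysed, with groups taken from the sample titles. The submitters' processing notes and the series' design text name Trim Galore for trimming, HISAT2 for alignment (build hg19), HTSeq 0.11.1 for the authors' deposited counts and DESeq2 1.26.0 for their own comparison. By the same design text, the deposited FPKM values take gene length and depth into account. Strandedness and the annotation release are not given in the sources used here. Reads of overlapping genes may therefore not be told apart.

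The table has 60623 rows, of which 60617 name genes; the 5 HTSeq summary rows (23.7 to 24.8% of reads) and 1 leftover header row stayed out. Symbols, positions and exon overlaps came from GENCODE release 44 lifted to GRCh37, which named 58524 identifiers; upstream windows came from RefSeq on GRCh38.p14. Counts were tested with edgeR 4.0.16 (R 4.3.3; TMM, filterByExpr at a minimum count of 10, quasi-likelihood F test, Benjamini-Hochberg adjustment over all genes). The SE is the log2 fold change divided by the square root of F. Alternatives were other scaling factors and filters, DESeq2 1.42.0, limma-voom (3.58.1), glmTreat, other fold limits, each replicate left out (the lone library is then assumed to vary like the other group), a block for the replicate number, and limma-trend fitted to log2(FPKM + 1).

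Members, lists, roles and motifs were chosen with earlier results of these data known. Named members are those called, the 6 smallest adjusted p in each of 5 classes, the highest FPKM in each and 8 fixed by role; other members named were chosen after their values were seen. A simulation based on these libraries put a 1.3-fold shift into 100 genes and a 2-fold shift into another 100. The test recovered 54 and 68 of them, respectively, at an adjusted p under 0.05. It also picked out 6 of the 17109 genes left alone. Only 200 of 17309 genes were shifted there, whereas 6314 passed in the data, and the Benjamini-Hochberg cut-off depends on how many pass. Members were also more abundant than all genes tested (median 65.6 against 16.7 CPM). These rates therefore cannot give the share of members whose small changes were missed. Replicates of a group differed by more than sampling noise (chi-square per degree of freedom 2.02 in DMSO and 2.47 in CBL0137).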

Additional observations from a re-analysis of the deposited data

How the results depend on the processing

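Of 34 named members, 8 changed sign under some setting. These were KDM1A with library size alone (0.0236), upper-quartile factors (0.01) and by FPKM (0.0431), and with replicates left out, where it ranged from -0.0888 to 0.0062. With replicates left out HDAC1 ranged from -0.0083 to 0.0339, SIRT6 from -0.0059 to 0.2346 and SIRT3 from -0.0662 to 0.2337. By FPKM, SIRT3 (-0.0722), HDAC2 (0.17), SETD5 (0.10), SIRT7 (0.0046) and KMT2A (0.11) changed sign too. Over 441 pairs of a named member and a setting, 352 kept direction and side of the adjusted p, 62 lost and 15 gained significance.

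At the fold limit, 1663 of all genes were called in the main test, 919 by DESeq2, 577 by FPKM, 2039 with glmTreat, 736 at a fold above 2 and 6314 with no fold limit. Members called were 0 by DESeq2, 0 above a fold of 2, 2 with glmTreat against 1.2-fold (NSD2, a methyltransferase, and KAT8, with KAT2B lost) and 23 with no fold limit, made of 8 methyltransferases, 3 demethylases, 6 acetyltransferases and 6 deacetylases. By FPKM 1 methyltransferase (KMT5A) was called and 0 of 7 acetyltransferases, KAT2B being below the FPKM minimum and not tested; DESeq2 called 0 acetyltransferases, and 0 passed a fold of 2. With replicates left out, members called ranged from 0 to 2, acetyltransferases from 0 to 1 and deacetylases from 0 to 1. At an adjusted p under 0.05 without a fold limit, members that rose numbered 12 with upper-quartile factors, 14 with library size alone, 3 with DESeq2 and 1 by FPKM, and from 4 to 8 with replicates left out; members that fell numbered 9 with library size alone, 10 with DESeq2 and 3 by FPKM. Over all genes DESeq2 gave 1523 rises and 2148 falls, and FPKM 973 and 758. The cause of these differences was not tested.

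The replicate number as a block left 1 member called, with 6 rises and 13 falls, and moved the count of all genes called to 1576. Under it HDAC8 (adjusted p = 0.052), KAT6A (0.073), KAT6B (0.075) and HDAC7 (0.079) lost significance. Deviations of same-numbered libraries had r = -0.0001 across tested genes and -0.09 across genes at a mean of 5 CPM or more. Genes are not independent, and with 2 libraries per group these values cannot show whether same-numbered libraries were paired.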

Other observations

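Non-coding genes that share a member's symbol were also measured, and 4 of 22 had enough counts for a test; those named were chosen after their values were seen. KDM4A-AS1, antisense to KDM4A, was called higher, on 87 and 75 counts in DMSO and 136 and 123 in CBL0137 (0.72 ± 0.18, edgeR adjusted p = 0.0032), while KDM4A itself measured -0.10. KDM7A-DT, a divergent transcript beside KDM7A, rose on 222 and 249 against 306 and 335 counts (0.48 ± 0.11, edgeR adjusted p = 0.0014), beside 0.14 for KDM7A. The other two did not pass, HDAC4-AS1 at 0.89 (adjusted p = 0.18) and KMT2E-AS1 at -0.07 (0.86). With strand use in the counting unstated, reads of an antisense gene and of its partner may not be told apart where their exons overlap. KDM7A shares 0% of its exon length with other genes and KDM4A 48.8%, the latter mainly with a gene on its own strand.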
